A study of Homo sapiens with 3 samples.

Results

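The zinc finger genes of chromosome 19 were taken as the protein-coding genes of GENCODE release 44 on hg19 that lie on chromosome 19 and are named ZNF plus a number. There were 240 such genes among 20163 protein-coding genes, and 237 of them had 1 canonical transcript and so 1 transcription start site (TSS) to measure from. They were compared with the 1234 other protein-coding genes of the chromosome that had a canonical TSS. ETS1 ChIP-Seq had been carried out in the tongue squamous carcinoma line SCC25 in 2 samples with the C20 antibody and 1 sample with the 501A antibody. The 3 samples were reduced by IDR, a method that keeps peaks found reproducibly between samples, to 1 list of 26970 peaks, of which 1433 lie on chromosome 19. SCC25 is a single cell line, and none of the 3 samples was depleted of ETS1. Because the list is pooled, it holds no value per sample and no spread between replicates, and the depth of each sample cannot be read from it. All intervals below are 95% intervals for counting error only (Wilson intervals for shares), and neighbouring ZNF genes are often copies of one another and so are not independent of each other.

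Most of the chromosome 19 zinc finger genes encode KRAB zinc finger proteins, which bind DNA through an array of C2H2 zinc fingers and recruit the co-repressor TRIM28 through the KRAB domain. TRIM28 in turn brings the histone methyltransferase SETDB1 and heterochromatin proteins, and many of these proteins silence retroelements. The genes arose by repeated local duplication and stand in clusters along the chromosome. ETS1 is an ETS family transcription factor whose binding sites carry the core letters GGAA.

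The start sites of some of these genes carry recognisable ETS letters, and some clusters differ in the form they carry. CCGGAAGT was found in 43 of 237 ZNF promoters and CCGGAAGC in 57. The shorter CGGAAG, which both contain, was found in 138 and was absent from 99. Short windows of 30 bases around the letters are printed because the peak calls are read against them later. Each is written 5' to 3' on the strand of the letters, from GRCh37 (the assembly of hg19), with the 8 matched letters in capitals. The windows were picked after the calls were known. In the cluster from ZNF264 to ZNF446, near the end of the long arm, the first form, CCGGAAGT, stood close to the TSS of many genes, and these 3 had a peak there.
ZNF264 (chr19:57702830-57702859, minus strand): cagcgagcaacCCGGAAGTcccgcccccac
ZNF805 (chr19:57751951-57751980, minus strand): ccatccaaatgCCGGAAGTcccgccccaag
ZNF419 (chr19:57999089-57999118, minus strand): caaacgagacgCCGGAAGTcccgcccattg

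In the cluster from ZNF575 to ZNF180 the same form occurred in otherwise unlike surroundings, and all 3 of these genes had a peak.
ZNF283 (chr19:44331375-44331404, minus strand): cggcagagtctCCGGAAGTtgaaacctgga
ZNF221 (chr19:44455321-44455350, minus strand): cgcctgcctgaCCGGAAGTgcccgcaaccc
ZNF155 (chr19:44488335-44488364, minus strand): ctgctcggagaCCGGAAGTgtcgatgatgc

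In the cluster from ZNF100 to ZNF91 a second form, CCGGAAGC, recurred in nearly the same surroundings. ZNF724 and ZNF91 had a peak, and ZNF98 and ZNF208 did not.
ZNF724 (chr19:23433197-23433226, plus strand): cccgccaaatcCCGGAAGCcgccctgtccg
ZNF91 (chr19:23578280-23578309, plus strand): ccagccacatcCCGGAAGCcgccctgtccg
ZNF98 (chr19:22605149-22605178, plus strand): cccgccacatcCCGGAAGCcgccctttccg
ZNF208 (chr19:22193747-22193776, plus strand): ccgaccacatcCCGGAAGCcgacctgtccc

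In 2 further pairs of near-identical windows, the first gene of the pair had a peak and the other did not.
ZNF808 (chr19:53030914-53030943, plus strand): ttaacgcaaacCCGGAAGCggatcgggtgg
ZNF611 (chr19:53238275-53238304, minus strand): ttaacgcaaacCCGGAAGCggatcgggtgg
ZNF417 (chr19:58427957-58427986, plus strand): tactagagaccCCGGAAGTctcagccttac
ZNF587 (chr19:58361201-58361230, minus strand): tactagagaccCCGGAAGTctcggccttac

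A peak midpoint lay in the promoter window, from 5 kb upstream to 1 kb downstream of the TSS, in 145 of the 237 ZNF genes, or 61.2% (54.8 to 67.2%). The background was 55.5% (685 of 1234 genes; 52.7 to 58.3%) for the other genes of the chromosome and 55.9% for all 19881 protein-coding genes with a canonical TSS. The share of ZNF genes was thus 5.67 percentage points above the rest of the chromosome, with an interval of the difference from -1.24 to 12.3 points that includes 0. At this window the ZNF genes could not be told apart from their chromosome. The 235 ZNF genes on other chromosomes had a peak in 77.0% (71.2 to 81.9%), and the difference of the chromosome 19 genes from these was -15.8 points (-23.9 to -7.52).

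The comparison changed with the width of the window. Within 500 bp on each side of the TSS, 59.9% of the ZNF genes still had a peak midpoint, against 41.2% of the other genes of chromosome 19, a difference of 18.7 points (11.8 to 25.4). Within 1500 bp the shares were 61.2% and 51.5%, a difference of 9.72 points (2.8 to 16.3). Against the ZNF genes of other chromosomes the difference within 500 bp was smaller than at the wide window, at -8.6 points, with an interval (-17.1 to 0.0529) that includes 0. In the plot of shares by window, the ZNF bars hardly move while those of the rest of the chromosome fall.

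**Figure D1:**
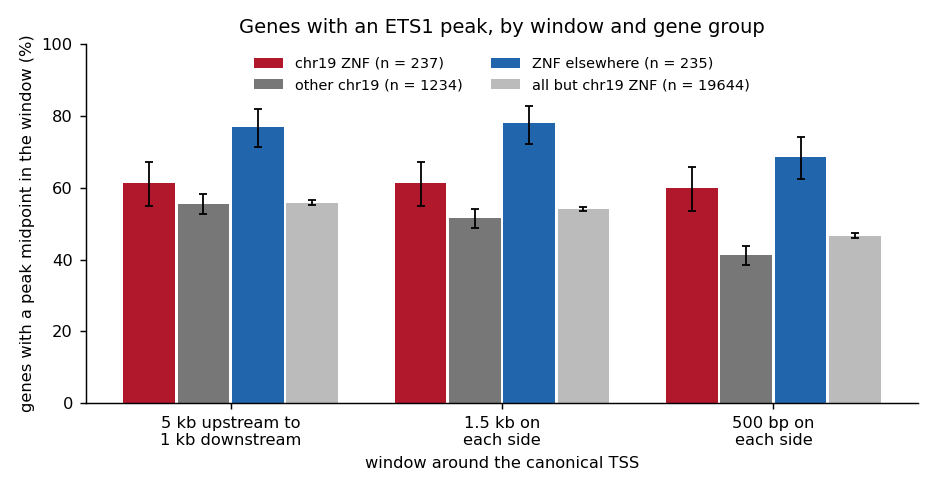
Share of genes (%) with an ETS1 peak midpoint in each of 3 windows around the canonical TSS, for 4 gene groups with their number of genes; bars are shares and lines are 95% Wilson intervals for counting error. The chromosome 19 ZNF genes stay between 59.9% and 61.2%, and the other genes of the chromosome fall from 55.5% to 41.2%.

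Among the 145 ZNF genes with a promoter window peak, the nearest midpoint lay a median of 100 bp from the TSS (quartiles 47 and 184 bp), against 242 bp (quartiles 105 and 507 bp) for the 685 other genes of the chromosome. It was within 500 bp in 142 of the 145, or 97.9% (94.1 to 99.3%), and the corresponding share of the other genes was 74.2% (70.8 to 77.3%). The 3 exceptions were ZNF700 at 547 bp upstream, ZNF296 at 579 bp downstream and ZNF787 at 619 bp downstream, where downstream means into the gene. The ZNF genes elsewhere lay in between, with a median of 171 bp and 89.0% (83.5 to 92.7%) within 500 bp. For all protein-coding genes the values were 187 bp and 83.6%. The midpoint was downstream of the TSS in 88 of the 145 genes, or 60.7% (52.6 to 68.3%), and upstream in 38.6%. The downstream share was near those of all protein-coding genes (56.4%) and of the ZNF genes of other chromosomes (65.7%). At ZNF264 it fell on the TSS itself, at 0 bp.

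**Figure D2:**
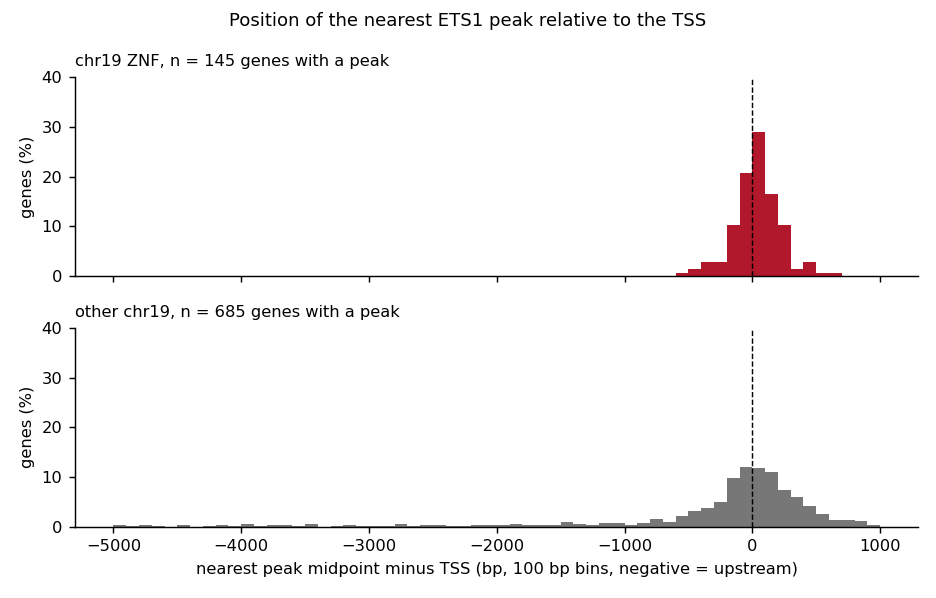
Distance in bp from the canonical TSS to the midpoint of the nearest promoter window peak, in 100 bp bins, as a share (%) of the genes with such a peak; negative values are upstream. All 145 ZNF genes lie between 547 bp upstream and 619 bp downstream, whereas the 685 other genes of the chromosome reach 4966 bp upstream.

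The peaks of the ZNF genes were also narrower. Their 149 distinct promoter window peaks had a median width of 1066 bp (quartiles 846 and 1395 bp, range 309 to 2968 bp), against 1424 bp for the 649 peaks of the other genes of the chromosome and 1244 bp for the 191 peaks of the ZNF genes elsewhere. The 95% interval of the median, 968 to 1132 bp, ended below both of those medians. Only 10 of the 149, or 6.71% (3.69 to 11.9%), were wider than 2 kb, and 23.4% (20.3 to 26.8%) of the peaks of the other genes were. The share was 14.7% (10.3 to 20.4%) for the ZNF genes elsewhere and 17.7% for all protein-coding genes. The list gives no height, so width is the only size it holds.

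**Figure D3:**
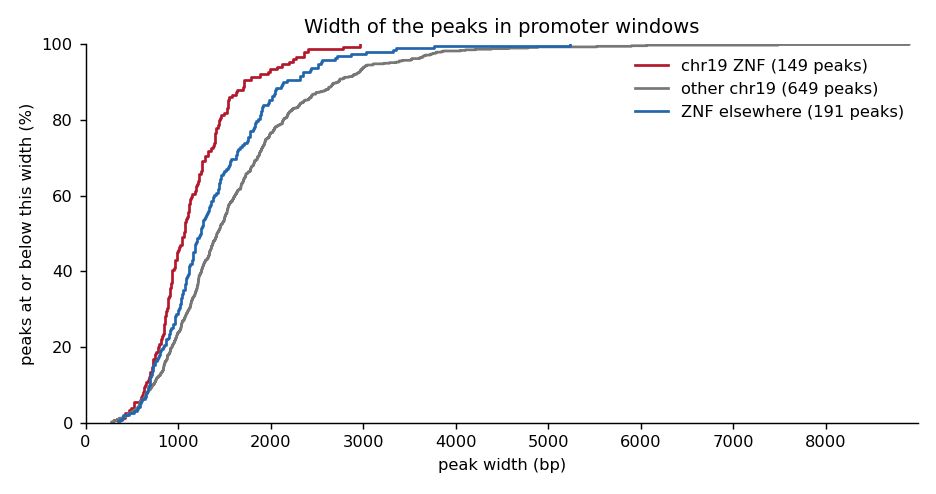
Cumulative share (%) of the distinct promoter window peaks at or below each width in bp, for the chromosome 19 ZNF genes, the other genes of chromosome 19 and the ZNF genes of other chromosomes. The ZNF curve of chromosome 19 lies to the left, with medians of 1066, 1424 and 1244 bp in that order.

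By the width of the peak nearest the TSS, the leading genes were ZNF446 (2786 bp, chr19:58986741-58989526), ZNF700 (2404 bp), ZNF580 and ZNF787 (2365 bp each), ZNF837 (2270 bp), ZNF865 (2240 bp), ZNF850 (2193 bp), ZNF524 (2124 bp), ZNF274 (2069 bp) and ZNF345 (1993 bp). Several of these stood in the clusters at the end of the long arm, and 6 of the 9 whose protein could be read had no KRAB letter pattern (ZNF580, ZNF787, ZNF837, ZNF865, ZNF524 and ZNF345), against 36 of all 236 readable proteins (15.3%). ZNF274, which binds the 3' ends of other zinc finger genes and recruits SETDB1 to them, had its own peak at chr19:58693596-58695664, with the midpoint 202 bp downstream of its TSS.

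Gene body peaks outside the promoter window were few. The 8 ZNF genes with a gene body peak and no promoter window peak made up 3.38% (1.72 to 6.52%), against a background of 10.4% (8.79 to 12.2%) for the other genes of the chromosome and 9.34% for all protein-coding genes. The ZNF genes of other chromosomes had nearly the same share, 3.83% (2.03 to 7.12%). Counting every gene with a body peak, with or without a promoter window peak, the shares were 10.1% (24 genes) for the chromosome 19 ZNF genes, 29.8% for the other genes of the chromosome and 17.9% for the ZNF genes elsewhere. The median length of the last exon, which holds the zinc fingers in most of these genes, was 3300 bp. A peak midpoint lay in the last exon of 2 of the 237 genes, or 0.844% (0.232 to 3.02%), an interval that holds the 2.41% of all protein-coding genes with more than 1 exon and the 2.15% of the ZNF genes elsewhere, and lies below the 4.34% of the other genes of the chromosome. The 2 were ZNF574, in a coding part, and ZNF580, in a non-coding part. Both midpoints also lay near another start site. That in ZNF574 was 475 bp from the TSS of an antisense transcript, and that in ZNF580 was 403 bp from the TSS of ZNF581.

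The 8 genes with gene body peaks only were ZNF709, ZNF675, ZNF254, ZNF536, ZNF875, ZNF575, ZNF114 and ZNF577, and ZNF575 had 2 such peaks. Of these 9 pairs of gene and peak, 5 had the midpoint within 500 bp of an annotated TSS of some gene, a count made for the ZNF genes only. The peak in ZNF875 (chr19:37808288-37809121) was 85 bp from another TSS of ZNF875, that in ZNF114 (chr19:48774146-48775541) 37 bp from another TSS of ZNF114, and that in ZNF254 8 bp from the TSS of a long non-coding RNA. The 2 peaks of ZNF575 were 259 bp from another of its own start sites and 344 bp from the TSS of ETHE1, a mitochondrial sulfur dioxygenase gene. The peaks of ZNF709 (7131 bp from any TSS), ZNF675 (35485 bp), ZNF536 (19829 bp) and ZNF577 (3207 bp) lay farther from any annotated start site. ZNF536, a neural zinc finger gene without a KRAB domain, had its peak in intron 1, at chr19:30882923-30883340.

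Over all ZNF genes there were 29 distinct body peaks, and 17 of them were within 500 bp of an annotated TSS. The same share was not counted for the body peaks of other genes, so whether it is unusual is not known. The genes with the most peaks in window and body together, 3 each, were ZNF432, ZNF580, ZNF586, ZNF627 and ZNF790, each with 1 promoter window peak and 2 body peaks. Both body peaks of ZNF586 lay at the start sites of other zinc finger genes inside its span, 55 bp from that of ZNF552 and 19 bp from that of ZNF587B. Another 11 genes had 2 promoter window peaks, among them ZNF296, ZNF345, ZNF569 and ZNF570. In 7 cases 1 peak served the windows of 2 ZNF genes, as at chr19:36704928-36706364 for ZNF565 and ZNF146 and at chr19:37406843-37407513 for ZNF829 and ZNF568. A further 28 of the 149 peaks also lay in the window of a protein-coding gene outside the ZNF set.

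The peaks were unevenly spread over the clusters. Linking genes whose start sites lie within 250 kb of the next gave 13 clusters of at least 5 genes, which held 214 of the 237 genes and 130 of the 145 with a promoter window peak. Of the 23 genes outside them, 15 had one. The cluster territories held 192 peaks over 11.3 Mb, or 17.0 peaks per Mb, against 27.9 per Mb in the rest of the sequenced chromosome. Of these 192 peaks, 83.9% (78.0 to 88.4%) were within 500 bp of an annotated TSS of some gene, against 52.1% (49.3 to 54.8%) of the 1241 peaks in the rest.

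Several clusters had a peak at most of their genes. In the cluster from ZNF264 to ZNF446 it was 33 of 41 genes (66.0 to 89.8%), with peaks at both end genes. In the cluster from ZNF575 to ZNF180 it was 20 of 23 (67.9 to 95.5%), where ZNF575 had body peaks only and ZNF180 had a promoter window peak. The cluster from ZNF566 to ZNF573 had 18 of 22 (61.5 to 92.7%) and that from ZNF317 to ZNF846 had 9 of 11 (52.3 to 94.9%), again with peaks at the first and last genes of each. All 5 genes from ZNF302 to ZNF792 had one, as did 6 of 7 from ZNF628 to ZNF581. In the middle stood the cluster from ZNF653 to ZNF791, with 15 of 24 (42.7 to 78.8%) and peaks at both ends, and the cluster from ZNF577 to ZNF331, with 18 of 38 (32.5 to 62.7%), where ZNF577 had a body peak only and ZNF331, an imprinted gene, had none.

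In the remaining clusters few genes had a peak. Of the 5 genes from ZNF554 to ZNF77 only ZNF554 had one, and of the 7 genes from ZNF582 to ZNF835 only ZNF71, while ZNF582 (78598 bp from the nearest peak) and ZNF835 (76342 bp) had none. The other 3 clusters stand next to each other beside the centromere, from ZNF101 to ZNF486 (2 of 8), from ZNF737 to ZNF429 (0 of 10, with an upper bound of 27.8%) and from ZNF100 to ZNF91 (2 of 13). With the link widened to 500 kb after these shares had been seen, they joined with the 4 genes from ZNF675 to ZNF254 into 1 array of 35 genes over 4.53 Mb.

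**Figure D4:**
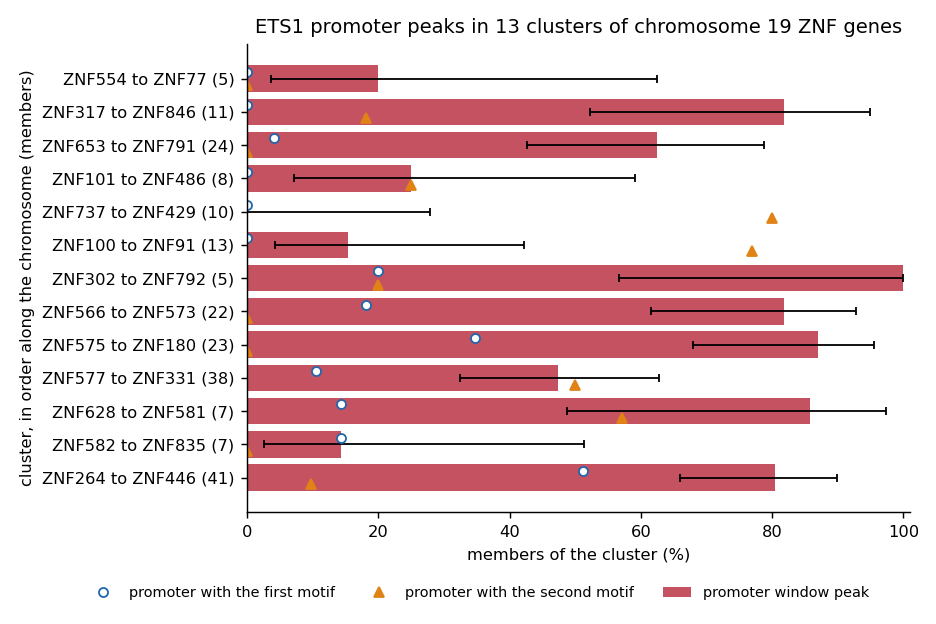
Share (%) of the members of each of the 13 clusters with a promoter window peak (bars, with 95% Wilson intervals as lines), and the shares whose promoter holds the first motif, CCGGAAGT (circles), or the second, CCGGAAGC (triangles); clusters run in chromosome order and the number of members is in brackets. The bars are short or absent from ZNF101 to ZNF91, where the triangles reach 80.0%, and long from ZNF264 to ZNF446, where the circle stands at 51.2%.

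In this array 4 of 35 genes, or 11.4% (4.54 to 26%), had a promoter window peak, against 141 of the other 202 ZNF genes, or 69.8% (63.1 to 75.7%). The array was picked out because its share was low, so this difference is a description. With only the first part of the deposited list (13485 peaks) the array share was 2.86%. The 4 genes were ZNF101 (peak of 1210 bp, chr19:19778937-19780146), ZNF506 (893 bp), ZNF724 (397 bp) and ZNF91 (733 bp, chr19:23577776-23578508, midpoint 131 bp downstream of the TSS). ZNF91 represses SVA retroelements. In all, 6 peaks lay in the array, or 1.32 per Mb, and the median distance from a TSS to the nearest peak was 466204 bp, reaching 1744753 bp at ZNF429. For the other ZNF genes that median was 160 bp.

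Duplicated promoters can lose reads, since the authors removed reads that mapped to more than one place. The uniqueness of the sequence around each TSS was therefore measured as the share of 50-base words, the read length, within 500 bp of the TSS that occur once in the genome. Only exact copies were counted, so a word whose copy differs by a single base passes as unique. Reads lost to such near copies are not covered by this measure. In the array the median was 98.5% (range 79.5 to 100%), and among the 32 genes with at least 90% unique words, 4 had a peak (12.5%; 4.97 to 28.1%). Among the other ZNF genes with that many unique words it was 135 of 191 (70.7%; 63.9 to 76.7%). ZNF208, a gene with 36 finger matches, the most of any member, had 79.5% unique words, and its lack of a peak is uncertain for that reason. The number of copies of each region in SCC25 was not measured.

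Promoters of the ZNF genes with a peak were richer in CpG. Within 500 bp of the TSS, the ratio of observed to expected CpG had a median of 0.734 in ZNF genes with a promoter window peak and 0.656 in those without, and the medians of the other genes of the chromosome were 0.737 and 0.387. ZNF genes without a peak thus had more CpG than other genes without a peak. Below a ratio of 0.6, 10 of 46 ZNF genes had a peak (21.7%; 12.3 to 35.6%), between 0.6 and 0.75 it was 74 of 110 (67.3%; 58.1 to 75.3%), and from 0.75 upward 61 of 81 (75.3%; 64.9 to 83.4%). The other genes of the chromosome had shares of 28.8%, 71.6% and 78.7% in the same order, and each ZNF share had an interval that contained them.

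**Figure D5:**
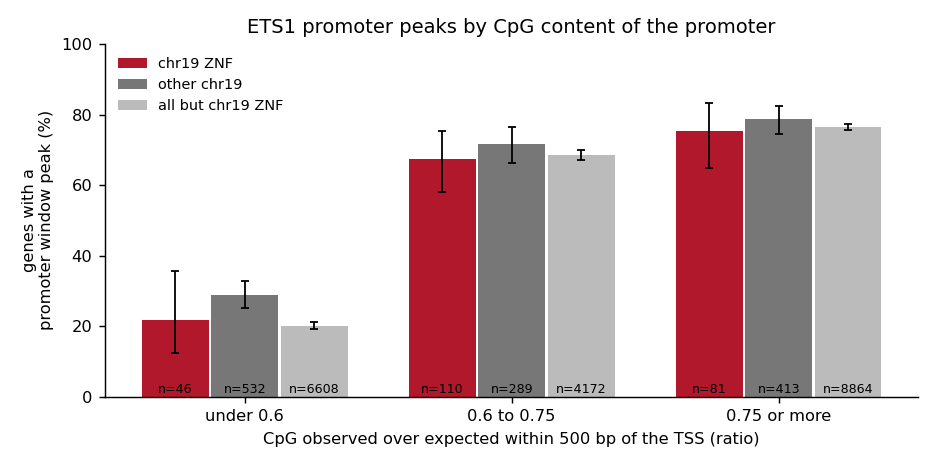
Share (%) of genes with a promoter window peak in 3 classes of the ratio of observed to expected CpG within 500 bp of the TSS, for the chromosome 19 ZNF genes, the other genes of the chromosome and all protein-coding genes but the ZNF genes of chromosome 19; lines are 95% Wilson intervals and n is the number of genes. In the ZNF genes the share is 21.7% in the lowest class and 75.3% in the highest.

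The array beside the centromere had a median CpG ratio of 0.537, against 0.728 in the other ZNF genes. At a ratio of at least 0.6, 1 of 8 array genes (12.5%; 2.24 to 47.1%) and 134 of 183 other ZNF genes (73.2%; 66.4 to 79.1%) had a peak. Below it, the counts were 3 of 27 (11.1%; 3.85 to 28.1%) and 7 of 19 (36.8%; 19.1 to 59.0%). The part of CpG content in the low share of the array was not tested further. The cluster from ZNF582 to ZNF835, with a peak at 1 of 7 genes, had a high median ratio of 0.753. Its only gene with a peak, ZNF71, had the lowest ratio of the 7, at 0.516, and ZNF667, at 0.987, had none.

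ETS letters were counted on both strands from 250 bases before the TSS to 50 bases from it. CCGGAAGT was found in 43 of 237 ZNF promoters, or 18.1% (13.8 to 23.5%), against 6.65% (5.39 to 8.17%) of the other promoters of the chromosome and 6.02% (5.69 to 6.36%) of all promoters but those of the ZNF genes. The ZNF genes of other chromosomes were also above the background, at 14.9% (10.9 to 20%), an interval that overlaps that of the chromosome 19 genes. The shorter CGGAAG, which both 8-letter forms contain, was found in 58.2% (51.9 to 64.3%), 25.2% and 25.1% in the same order, and in 46% (39.7 to 52.3%) of the ZNF promoters elsewhere. AGGAAG was closer to the background, at 38.8%, 33.1% and 32.6%. CCAAT, a letter run bound by NF-Y, stood in 51.5%, 37.4% and 35.8%, the Sp1-type GGGCGG in 69.2%, 66.1% and 61.3%, and the AP-1-type TGANTCA in 5.49%, 4.54% and 5.4%.

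ZNF genes with CCGGAAGT had a promoter window peak in 35 of 43 cases, or 81.4% (67.4 to 90.3%), and those without it in 110 of 194, or 56.7% (49.7 to 63.5%). For the other genes of the chromosome the shares were 91.5% (83.4 to 95.8%) with the letters and 53.0% without, and for the ZNF genes elsewhere 91.4% and 74.5%. None of the 35 genes of the array beside the centromere holds CCGGAAGT, so all of these count among the ZNF genes without it. Outside the array, 87 of 129 chromosome 19 ZNF genes with neither 8-letter form had a peak (67.4%; 59 to 74.9%). For CGGAAG the ZNF shares were 63.8% (55.5 to 71.3%) with and 57.6% (47.7 to 66.8%) without, and the other genes of the chromosome had 81.7% and 46.7%. The ZNF genes elsewhere stood at 81.5% and 73.2%. In the array 3 of 24 genes with CGGAAG had a peak. Among the other chromosome 19 ZNF genes with CGGAAG it was 85 of 114 (74.6%; 65.9 to 81.7%). Of all ZNF genes outside the array, with or without these letters, 69.8% had a peak. With CCAAT the ZNF share was lower, at 50.0% (41.3 to 58.7%) against 73.0% (64.3 to 80.3%) without, and the ZNF genes elsewhere were likewise lower with it, at 70.1% against 81.9%. The other genes of the chromosome stood at 58.7% and 53.6%. GGGCGG went with more peaks in the other genes, 65.7% against 35.6%, and in the ZNF genes elsewhere, 83.2% against 66.3%. The chromosome 19 ZNF shares were 59.1% and 65.8%. The shares for CCAAT and GGGCGG were not split by the array, so how far its low share of peaks enters them is not known.

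The second form, CCGGAAGC, also holds CGGAAG. It was added after the sequences of the array had been read, and was found in 57 ZNF promoters, or 24.1% (19.1 to 29.9%), against 5.67% of the other promoters of the chromosome and 4.94% of all but the ZNF genes. Only 24 of these 57, or 42.1% (30.2 to 55.0%), had a promoter window peak. Among the other genes of the chromosome with the same letters it was 60 of 70, or 85.7% (75.7 to 92.1%), and among all genes but the ZNF genes 88.8% (86.6 to 90.6%). The ZNF genes elsewhere held these letters in 14% (10.2 to 19.1%) of promoters, and 23 of those 33 had a peak (69.7%; 52.7 to 82.6%).

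The 2 forms divided by cluster. CCGGAAGT stood in 21 of the 41 promoters from ZNF264 to ZNF446, 17 of them with a peak, and in 8 of the 23 from ZNF575 to ZNF180, all 8 with a peak. It was in 0 of the 35 array promoters (upper bound 9.89%), where CCGGAAGC was in 24, or 68.6% (52.0 to 81.4%), and 3 of these 24 had a peak (12.5%; 4.34 to 31%). Outside the array CCGGAAGC was in 33 ZNF promoters, 21 of them with a peak (63.6%; 46.6 to 77.8%). The largest such group outside the array was that from ZNF577 to ZNF331, in which 19 of 38 promoters held it and 8 of these had a peak.

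Within the searched stretch most matches lay close to the TSS, and their direction differed between clusters. Place and strand were counted for the ZNF promoters of this chromosome only. Whether they differ from those at other promoters with the same letters is not known. Of 46 matches to CCGGAAGT in the ZNF promoters, 38 were on the strand opposite to the gene and 42 lay between 100 bases before and 20 bases after the TSS. Of 59 matches to CCGGAAGC, 29 were on the opposite strand and 47 lay in that interval. From ZNF100 to ZNF91 all 10 matches to CCGGAAGC were on the opposite strand and began 18 to 25 bases before the TSS. From ZNF577 to ZNF331 all 19 genes had them on the strand of the gene, most often beginning 4 bases after the TSS. From ZNF575 to ZNF180 the place of CCGGAAGT varied more, from 87 bases before the TSS to 6 after it. Any pair from ZNF100 to ZNF91 shared a median of 26 of 30 bases, and from ZNF577 to ZNF331 a median of 23, while the 8 windows from ZNF575 to ZNF180 shared a median of 14.5. These counts include the 8 matched letters, which are the same in every pair by the way the windows were cut.

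Genes with near-identical letters differed in their calls. The windows of ZNF808 and ZNF611 printed above were identical over 30 of 30 bases. ZNF808 had a peak of 1141 bp (chr19:53030292-53031432) with the midpoint 59 bp upstream of the TSS, and ZNF611 had none within 188242 bp, although 100% and 99.4% of their words were unique. ZNF417 and ZNF587 shared 29 of 30 bases, and only ZNF417 had a peak (764 bp, midpoint 14 bp upstream). Their unique shares were low, at 84.1% for ZNF417 and 73.7% for ZNF587, so the call at ZNF587 is uncertain. ZNF724 and ZNF98 shared 28 of 30 bases, and ZNF98, with 94.9% unique words, had no peak.

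By their proteins, translated from the canonical coding sequence, the ZNF genes with and without a promoter window peak were alike in finger number. The median number of C2H2 finger matches was 12 in the 144 genes with a peak and 12.5 in the 92 without. ZNF274 was left out, because its reading frame is broken in the lifted annotation. A KRAB A box letter pattern was found in 200 of 236 proteins (84.7%). Of these 200 genes, 118 had a promoter window peak (59.0%; 52.1 to 65.6%), and of the 36 without the pattern, 26 had one (72.2%; 56.0 to 84.2%). The intervals overlap. All 13 ZNF genes with a divergent protein-coding neighbour starting within 1 kb had a peak (77.2 to 100%), among them ZNF146 and ZNF568, compared with 132 of the 224 others (58.9%; 52.4 to 65.2%). Some of the 13 are each other's neighbours and share 1 peak, namely ZNF490 with ZNF791, ZNF565 with ZNF146, ZNF829 with ZNF568 and ZNF571 with ZNF540. The interval counts such shared peaks more than once. Genes with such a neighbour had a peak in 93% (87.3 to 96.3%) of cases among the other genes of the chromosome and in 91.9% among all protein-coding genes, both inside the interval of the ZNF genes.

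Genes with known functions were found on both sides. ZNF350, a partner of BRCA1, had a peak of 520 bp at chr19:52489937-52490456, and ZNF224, a repressor of aldolase A, one of 1411 bp at chr19:44598147-44599557. ZNF420, a regulator of p53, had a peak of 840 bp with the midpoint 76 bp upstream, and ZNF304 one of 862 bp with the midpoint 20 bp downstream. ZNF568, whose mouse counterpart represses a placental Igf2 transcript, had a peak of 671 bp shared with its divergent neighbour ZNF829.

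Peaks were also present at ZNF180 (911 bp), ZNF226 (748 bp), ZNF461 (630 bp), ZNF528 (643 bp), ZNF570 (930 bp for the peak nearest its TSS), ZNF507 (1325 bp), ZNF146 (1437 bp) and ZNF296 (1783 bp). The midpoint was 2 bp from the TSS at ZNF226 and 579 bp from it at ZNF296. No peak lay in the window or body of ZNF382, ZNF765, ZNF331, ZNF582, ZNF667, ZNF471, ZNF154 or ZNF671. The nearest peak was 19195 bp away for ZNF671 and 26961 bp for ZNF154, which are neighbours in the cluster from ZNF264 to ZNF446, and 172265 bp away for ZNF331. ZNF671 holds CCGGAAGT 17 bases before its TSS and was 1 of the 4 genes with a match of that form in this cluster that had no peak.

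The 3 ZNF genes without a canonical transcript were ZNF442, ZNF714 and ZNF43. Measured from all their annotated start sites, ZNF442 had 1 peak, 351 bp from the nearest start site. ZNF714 and ZNF43, which lie inside the span of the array, had none, and their nearest peaks were 1332644 bp and 1398230 bp away.

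The co-repressors through which KRAB zinc finger proteins act were read from a list of 25 genes. A promoter window peak was found at 23 of them, or 92.0% (75 to 97.8%), beside the 55.9% of all protein-coding genes. That interval also holds the 76.4% of genes outside the ZNF set whose CpG ratio was at least 0.75. The list was not matched to a background by CpG ratio. TRIM28, itself on chromosome 19, had a peak of 1551 bp at chr19:59055093-59056643, and SETDB1 had one of 660 bp with the midpoint 95 bp downstream of its TSS. DNMT1 and UHRF1, which maintain DNA methylation, had peaks of 1817 bp and 1045 bp. SUMO2, a ubiquitin-like modifier gene, and ATRX, a chromatin remodeller gene, had none. Among the 32 zinc finger genes of chromosome 19 with other names, such as the ZFP, ZSCAN and KLF genes, 19 had a promoter window peak (59.4%; 42.3 to 74.5%), and the ZNF genes of the chromosome were 1.81 points above them (-14.6 to 19.9), a difference that could not be told from 0.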

How the data were processed

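The 3 ETS1 ChIP-Seq samples of SCC25 cells (C20 antibody, 2 samples; 501A antibody, 1 sample) were sequenced by the authors as 50-base single reads and mapped to hg19 with Bowtie 1.1.1, with reads of several loci discarded. Pooled reads were merged with SAMtools 1.3, peaks were called with MACS2 against merged input, and the list was set by IDR at its optimal threshold. The deposited list has 3 columns (chromosome, start and end in bp), and all belong to the pool of samples, so depth per sample and replicate spread cannot be read from it. The methods of the study give depth as a range over samples. Its order is not explained in the sources used here.

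Gene models came from GENCODE release 44 lifted to GRCh37. A peak belonged to a gene if its midpoint lay from 5 kb upstream to 1 kb downstream of the canonical TSS, and otherwise in the gene body, which is the span of all transcripts of the gene. Shares carry 95% Wilson intervals, differences Newcombe intervals, and medians order statistic intervals. No test was run. Uniqueness was counted over all 50-base words of GRCh37, with exact matches only. Finger matches were C2H2 runs with 12 residues between the cysteine and histidine pairs, and a KRAB box needed 8 of 15 letters. Sequences were read from GRCh37. Position rules and motif counts were tested on made-up data. Python 3.11.15, pandas 2.3.3, scipy 1.17.1, pysam 0.24.0, numba 0.67.0 and biopython 1.88 were used.

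The members and lists were chosen with earlier results of these data known. The genes named are the 10 with the widest peak, the 5 with the most peaks, all with body peaks only, the end genes of each cluster and a list of 24 genes with known functions or positions. The 3 genes without a canonical transcript were also named. The array beside the centromere, ZNF506, ZNF569, ZNF71, the genes of the printed windows, ZNF574, ZNF552, ZNF587B, ZNF565, ZNF829 and CCGGAAGC were chosen after their values had been seen.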

Additional observations from a re-analysis of the deposited data

How the results depend on the processing

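The list is 1 pooled file, so no replicate could be left out, and how depth or the spread between antibodies affects the shares could not be assessed. No paired analysis was possible because the list holds no column per sample. The share of ZNF genes moved most with the peaks admitted. That of the other genes of chromosome 19 also moved with the window, to 41.2% within 500 bp. With the first part of the list (13485 peaks in deposited order), 49.8% of the ZNF genes and 37.7% of the other genes of chromosome 19 had a promoter window peak. With peaks at least as wide as the median of the list, the shares were 37.1% and 46.7%, and the difference turned to -9.55 points. The ZNF genes were above the rest of the chromosome in every alternative run but that one, and their promoter window peaks are narrower. The excess ranged from 1.85 points with every annotated TSS to 18.7 points within 500 bp. These runs reuse the same genes and peaks, and intervals were computed only for the 500 bp and 1500 bp windows. At the main window the interval ran from -1.24 to 12.3 points, and the shared sign of the runs does not settle whether there is a difference there.

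With each peak given to the nearest TSS, the shares were 54.4% and 45.2%. For the other genes of the chromosome, the share was 61.0% with every annotated TSS, 49.9% without genes that have another TSS within 1 kb, 58.9% with at least 90% unique words, 41.2% within 500 bp and 51.5% within 1500 bp. In the same order the ZNF shares were 62.9%, 57.4%, 62.3%, 59.9% and 61.2%. Within 500 bp the difference was 18.7 points. The share of ZNF genes with a body peak only was 1.27% with the wider peaks and 1.69% with every annotated TSS. The median width and the median distance stayed within their intervals in each of the 4 alternatives run for them, at 1029 to 1084 bp and 95 to 105 bp. For the array from ZNF101 to ZNF254, with alternatives chosen after seeing the data, the share was 2.86% with the first part of the list and 11.4 to 14.3% otherwise.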
